A study of Homo sapiens with 4 samples.

Results

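The SLC25 family of mitochondrial carriers was described in the human clear cell renal cell carcinoma (ccRCC) line 786-O with and without VHL. The members were all genes of the deposited count table whose symbol starts with SLC25A, which gave 39 of 12912 genes. Of these, 36 had enough reads to be tested, and SLC25A32, SLC25A34 and SLC25A41 did not. Of 48 carriers listed by substrate, the other 9 were not analysed here (SLC25A2, SLC25A6, SLC25A24, SLC25A26, SLC25A31, SLC25A33, SLC25A47, SLC25A48 and SLC25A52).

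786-O cells carry no functional VHL, the substrate-recognition subunit of an E3 ubiquitin ligase that marks HIFα for degradation. RNA-seq compared 786-O-Ctrl, labelled as VHL-null, with 786-O-VHL, in which VHL was restored by a retroviral vector for the HA-tagged wild-type protein, and both sublines carried a triple reporter (GFP, luciferase and thymidine kinase). Each group had 2 libraries of bulk RNA, both from 1 subline grown in RPMI1640 with serum, and the labels do not say whether they came from separate cultures, so p-values measure the spread between these libraries, which may be technical. Sublines that differ by the introduced vector may also differ by selection or drift, which cannot be told apart from VHL here.

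The libraries held 22141263 and 15714166 counts in 786-O-Ctrl, and 2807779 in replicate 1 and 16114120 in replicate 2 of 786-O-VHL. Replicate 1 of 786-O-VHL thus stood apart by its low depth. Levels are given as CPM, the counts of a gene relative to the total of its library after scaling by TMM factors, and 3 counts correspond to between 0.142 and 0.199 CPM in the deep libraries and to 1.02 CPM in 786-O-VHL replicate 1. VHL itself, which checks the labels, read 42.9 and 43.9 CPM in 786-O-Ctrl against 178 and 163 CPM in 786-O-VHL. All 7 renal epithelial markers were detected, with a summed level of 3143 to 3157 CPM in 786-O-Ctrl and 1818 to 1960 CPM in 786-O-VHL. At an FDR of 0.05, 5 were lower and 1 was higher in 786-O-VHL (71.4% and 14.3%, against 31.9% and 32.6% of all genes). PECAM1 and KDR, endothelial markers, together read between 0.339 and 0.760 CPM, and their part and that of the renal markers in the results on the carriers was not tested. Throughout, paired values are given with the deeper 786-O-Ctrl library before the shallower one, and replicate 1 before replicate 2 of 786-O-VHL.

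Members of the SLC25 family sit mostly in the inner mitochondrial membrane, which is otherwise nearly closed to charged metabolites. Each carrier opens in turn to the intermembrane space and to the matrix, and most exchange one metabolite for another, so that together they join the cytosolic and mitochondrial parts of ATP supply, the citric acid cycle, amino acid metabolism, heme and iron-sulfur cluster synthesis and fatty acid oxidation. Kidney tubule cells, from which ccRCC arises, are rich in mitochondria, and ccRCC is known for a shift from oxidative metabolism to glycolysis when VHL is lost.

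Which carriers differed with VHL was tested with edgeR's quasi-likelihood test over all genes. In the family, 10 members were higher in 786-O-VHL and 10 were lower at an FDR of 0.05, and 16 of the 36 tested did not pass. The share called was 55.6%, against 64.5% of all 12335 genes tested. It was 27.8% in each direction, against 32.6% higher and 31.9% lower in the background, so these shares lay below the background in this fit. In alternative fits the lower share was slightly above it, with RLE size factors (33.3% against 32.7%) and with limma-voom (33.3% against 32.8%). It was also above it without 786-O-VHL replicate 1, a fit that leaves 1 library in that group. In bulk RNA, fewer cells with a transcript and less of it per cell cannot be told apart. The higher members were SLC25A29, SLC25A38, SLC25A42, SLC25A37, SLC25A25, SLC25A30, SLC25A22, SLC25A11, SLC25A36 and SLC25A27. The lower members were SLC25A10, SLC25A1, SLC25A13, SLC25A44, SLC25A14, SLC25A5, SLC25A40, SLC25A43, SLC25A39 and SLC25A3.

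Most differences were small. The median log2 fold change of the tested members was -0.07, with a range of -0.92 to 1.71, against a median of 0.02 over all genes. Its size without sign had a median of 0.332, against 0.428 over all genes, and 34 of 36 members (94.4%) differed by less than 2-fold, against 81.8% of all genes. Past 2-fold and an FDR of 0.05 were 2 members, SLC25A29 and SLC25A27, where 17.5% of all genes passed. SLC25A27 had at most 16 counts in a library and entered the test only through the 786-O-VHL libraries, in which it was higher, so its count among the called members is no support for a rise. None passed 4-fold with an FDR under 0.01, against 4.46% of all genes. In 12 members both 786-O-VHL libraries lay above both of 786-O-Ctrl and in 16 they lay below, where 40.8% and 39.2% of all genes did so.

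The split depended on scaling and on the test used, and the median also on single libraries. Scaled by library totals alone, which moved the median of all genes from 0.02 to 0.15, 13 members were higher and 7 lower (36.1% and 19.4%, against 41.2% and 25.1% of all genes). With DESeq2 4 were higher and 9 lower (11.1% and 25.0%, against 23.2% and 25.5% of all genes). After thinning to the shallowest library 6 were higher and 7 lower (18.8% and 21.9%, against 26.2% and 26.2% of all genes). With each library left out, the median of the members lay between -0.146 and -0.058, against -0.001 to 0.02 over all genes. In every alternative run, 9 members kept their call: SLC25A1, SLC25A5, SLC25A10, SLC25A13, SLC25A39 and SLC25A44 as lower and SLC25A29, SLC25A37 and SLC25A38 as higher.

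**Figure D1:**
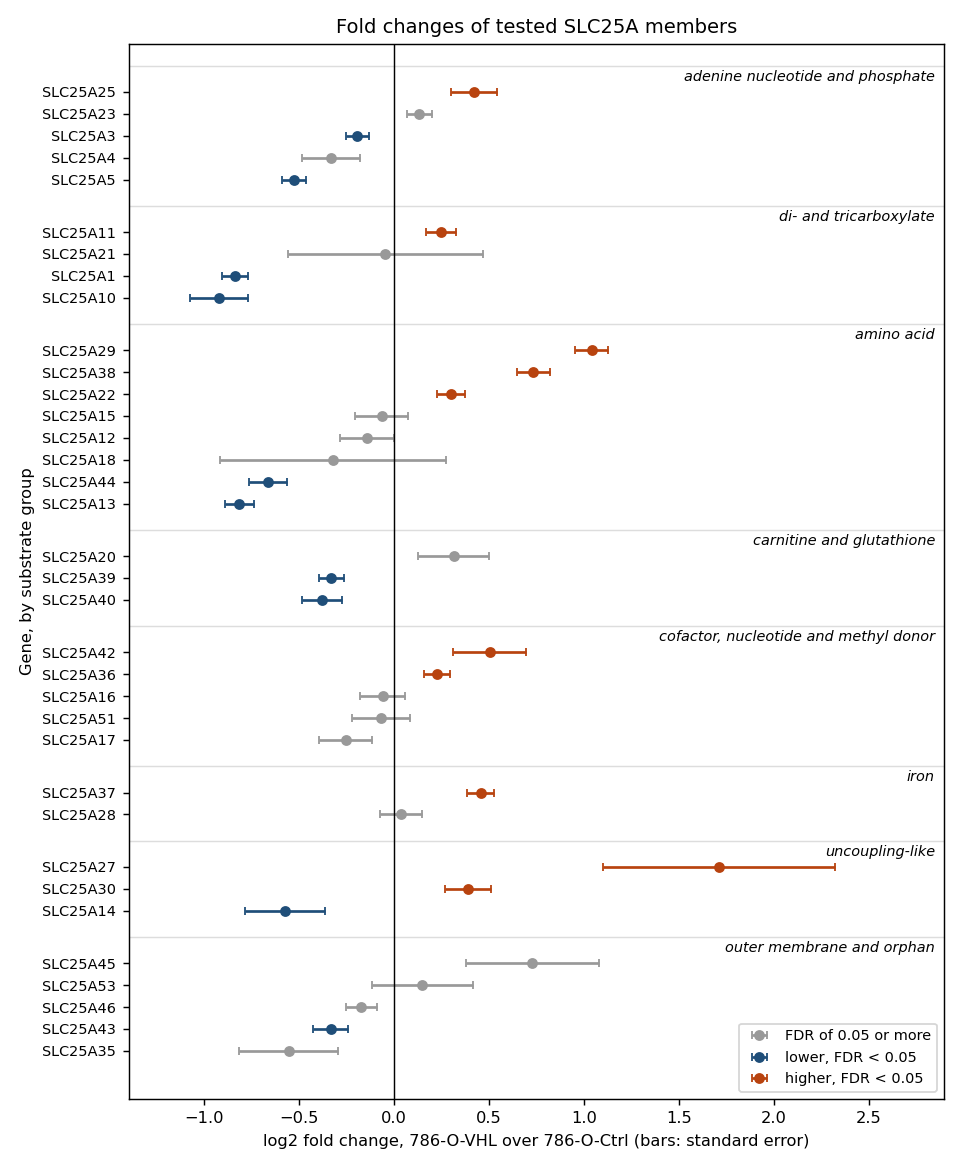
log2 fold change of tested SLC25A members, 786-O-VHL over 786-O-Ctrl, in groups by substrate, with bars for the standard error (edgeR, 2 libraries per group). Points run from -0.92 in SLC25A10 to 1.71 in SLC25A27, and most lie within 1 log2 unit of 0.

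The promoters of members with large falls and rises are printed to show the DNA from which these transcripts start. Sequences are from RefSeq on GRCh38.p14 and run 5′ to 3′ on the strand of the gene, from 250 bases before to 50 bases after the start. Capitals mark ACGTG or GCGTG on either strand (CACGT or CACGC where read on the other strand), the core letters of the hypoxia response element that HIF binds. A match to CACGTG, the E-box read by MYC and other factors, counts as ACGTG on both strands. SLC25A1 had the smallest p of the lower members, SLC25A29 and SLC25A27 had the largest rises, and SLC25A13 was added after its letters were seen, as the window with the most matches among the members.
SLC25A1 promoter, chr22:19178687-19178986, - strand: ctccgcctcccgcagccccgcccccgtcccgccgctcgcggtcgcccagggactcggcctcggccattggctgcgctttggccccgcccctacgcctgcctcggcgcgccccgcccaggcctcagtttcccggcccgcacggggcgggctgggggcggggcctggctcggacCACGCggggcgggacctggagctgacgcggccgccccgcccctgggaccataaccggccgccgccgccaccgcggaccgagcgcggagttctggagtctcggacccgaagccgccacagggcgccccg
SLC25A29 promoter, chr14:100306395-100306694, - strand: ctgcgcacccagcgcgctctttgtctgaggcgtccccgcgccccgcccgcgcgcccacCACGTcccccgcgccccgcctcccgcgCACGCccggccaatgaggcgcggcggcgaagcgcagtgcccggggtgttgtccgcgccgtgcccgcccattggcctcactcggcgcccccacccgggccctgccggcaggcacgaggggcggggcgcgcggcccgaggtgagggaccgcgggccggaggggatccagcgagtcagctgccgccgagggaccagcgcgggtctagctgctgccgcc
SLC25A27 promoter, chr6:46652725-46653024, + strand: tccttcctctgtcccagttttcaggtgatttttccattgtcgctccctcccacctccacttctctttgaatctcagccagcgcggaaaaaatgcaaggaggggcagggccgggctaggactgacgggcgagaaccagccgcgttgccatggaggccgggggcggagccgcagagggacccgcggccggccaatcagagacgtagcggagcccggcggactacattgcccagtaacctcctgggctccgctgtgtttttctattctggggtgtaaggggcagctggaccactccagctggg
SLC25A13 promoter, chr7:96322049-96322348, - strand: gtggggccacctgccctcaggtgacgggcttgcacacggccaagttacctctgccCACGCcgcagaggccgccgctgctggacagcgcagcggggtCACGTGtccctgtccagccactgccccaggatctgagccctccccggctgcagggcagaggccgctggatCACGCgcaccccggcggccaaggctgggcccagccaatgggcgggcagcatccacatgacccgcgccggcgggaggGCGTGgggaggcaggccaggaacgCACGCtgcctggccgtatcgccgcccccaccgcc
The window of SLC25A1 held 1 match, that of SLC25A29 held 2, that of SLC25A27 held 0 and that of SLC25A13 held 6, with a CACGTG among them. These 4 windows differed in GC content, from 62.0% in SLC25A27 to 80.3% in SLC25A1.

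Across the family, 38 windows were found for 32 of the 39 members. GCGTG stood in 76.3% of the members' windows and ACGTG in 28.9%, against 36.5% and 21.4% of all 35116 promoters, and at least one of them stood in 78.9% against 48.4%. The members' windows were also richer in G and C, with a median GC content of 66.8% against 58.7%, and the part of base composition in these shares was not tested. By direction, 9 of 10 windows of lower members held a match, from 10 genes. So did 10 of 13 windows of higher members, from 8 genes, and 10 of 14 windows of members without a call, from 13 genes. ACGTG alone had another order, in 20.0% of the windows of lower members, 38.5% of higher members and 28.6% of members without a call. The median GC content of these windows was 72.5%, 66.7% and 64.7% in the same order. Some genes had several windows, so the windows are not independent, and the directions were not tested against each other. CACGTG stood in 15.8% of the members' windows and 7.26% of all promoters. A match is a description of the letters and not a binding site.

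Among the carriers of adenine nucleotides and phosphate, which feed ATP synthesis, 5 members were tested. Of these, 2 were lower (40.0%) and 1 higher (20.0%), where 31.9% of all genes were lower and 32.6% higher. The groups by substrate are small, and their shares were not tested against those of all genes. SLC25A5, the ADP/ATP carrier typical of dividing cells (ENSG00000005022.6, GRCh37 chrX:118602385-118605359, plus strand), read 300.5 and 299.8 CPM in 786-O-Ctrl and 199 and 213 CPM in 786-O-VHL. Both 786-O-VHL libraries were below both of 786-O-Ctrl, by 1.44-fold (log2 fold change -0.53, SE 0.064, FDR 3.3e-08). It has 9 annotated pseudogenes that could share reads with it, and SLC25A5-AS1 lies across 13.2% of its exon length on the other strand. Other members share these limits. Among them, SLC25A1 and SLC25A15 have 5 annotated pseudogenes each, SLC25A3 has 3 and SLC25A39 has 2. Genes on the other strand lie across 11.2% of the exon length of SLC25A25 (SLC25A25-AS1) and 9.31% of that of SLC25A29.

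SLC25A3, the phosphate carrier, which also brings copper into the matrix (ENSG00000075415.12, chr12:98987369-99000157, plus strand), read 411 and 414 CPM in 786-O-Ctrl and 369 and 354 CPM in 786-O-VHL. The groups did not overlap, but the fall was small, 1.15-fold (log2 fold change -0.20, SE 0.061, FDR 0.00671), and its call was lost in 4 alternatives. SLC25A25, an ATP-Mg/phosphate carrier regulated by calcium (ENSG00000148339.12, chr9:130830480-130871524, plus strand), read 19.7 and 21.6 CPM in 786-O-Ctrl and 22.04 and 29.3 CPM in 786-O-VHL. It rose 1.34-fold (log2 fold change 0.42, SE 0.12, FDR 0.00375), with replicate 2 well above the other libraries, and without that replicate its log2 fold change was 0.10 and not called. In all, its call was lost in 4 alternatives.

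SLC25A23, another calcium-regulated ATP-Mg/phosphate carrier and one of the most abundant members per length, read 112 and 111 CPM in 786-O-Ctrl and 127 and 120 CPM in 786-O-VHL (log2 fold change 0.13, SE 0.066, FDR 0.0821). Its libraries did not overlap, yet the difference did not pass the test in the main fit. SLC25A23 was called higher by edgeR with library totals alone (FDR 0.000844) and after thinning (FDR 0.03). SLC25A4, the ADP/ATP carrier of heart and muscle, had a log2 fold change of -0.33 with an FDR of 0.0556. It was called lower by edgeR with RLE size factors (FDR 0.0457) and with no filter (FDR 0.0438), and by limma-voom (FDR 0.0355).

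Of the carriers of di- and tricarboxylates, which pass citric acid cycle intermediates to the cytosol, 4 were tested. Among them 2 were lower and 1 higher, where 31.9% of all genes were lower and 32.6% higher. SLC25A1, the citrate carrier, exports citrate for fatty acid and sterol synthesis (ENSG00000100075.10, chr22:19163094-19166252, minus strand). It read 203 and 192 CPM in 786-O-Ctrl and 109.9 and 111 CPM in 786-O-VHL. The 786-O-VHL libraries differed from each other by 1.01-fold and lay 1.79-fold below 786-O-Ctrl (log2 fold change -0.84, SE 0.067, FDR 9.1e-12), the smallest p of any lower member.

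SLC25A10, the dicarboxylate carrier, exchanges malate and succinate for phosphate (ENSG00000183048.12, chr17:79679266-79688046, plus strand). It was singled out after its values were seen, as the member with the largest fall, and read 17.3 and 16.8 CPM in 786-O-Ctrl and 8.14 and 9.20 CPM in 786-O-VHL. The fall was 1.90-fold (log2 fold change -0.92, SE 0.15, FDR 7.17e-06), and no library of one group came near the other. A second annotated gene on the same strand covers 46.6% of its exon length, so the counting could split reads between them.

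SLC25A11, the oxoglutarate/malate carrier, which belongs to the malate-aspartate shuttle (ENSG00000108528.14, chr17:4840425-4843348, minus strand), read 54.5 and 51.1 CPM in 786-O-Ctrl and 64.8 and 62.0 CPM in 786-O-VHL. It rose 1.19-fold (log2 fold change 0.25, SE 0.078, FDR 0.00737), without overlap between the groups, and the call was lost in 3 alternatives. SLC25A21, the oxodicarboxylate carrier, stayed near 1 CPM and was not called (FDR 0.946).

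Of the amino acid carriers, 8 were tested, and 3 were higher and 2 lower (37.5% and 25.0%, against 32.6% and 31.9% of all genes). SLC25A29, a carrier of basic amino acids (ENSG00000197119.13, chr14:100757453-100772884, minus strand), read 31.6 and 30.4 CPM in 786-O-Ctrl and 69.2 and 62.0 CPM in 786-O-VHL. Both 786-O-VHL libraries were about double either 786-O-Ctrl library, and the rise was 2.06-fold (log2 fold change 1.04, SE 0.087, FDR 2.67e-11), the smallest p of any higher member. With each library left out in turn it lay between 1.00 and 1.15.

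SLC25A38, the glycine carrier needed for the first step of heme synthesis (ENSG00000144659.13, chr3:39424861-39438842, plus strand), was singled out after its values were seen, as the next rise in size. It read 34.7 and 34.0 CPM in 786-O-Ctrl and 61.4 and 55.6 CPM in 786-O-VHL, without overlap. The rise was 1.66-fold (log2 fold change 0.73, SE 0.087, FDR 2.74e-08). SLC25A22, a glutamate carrier, rose 1.23-fold (log2 fold change 0.30, SE 0.076, FDR 0.00118), a call lost in 4 alternatives, and its log2 fold change without 786-O-VHL replicate 2 was 0.18.

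SLC25A13, the aspartate/glutamate carrier known as citrin, moves aspartate out of the matrix (ENSG00000004864.13, chr7:95749532-95951459, minus strand). It read 83.9 and 78.2 CPM in 786-O-Ctrl and 45.8 and 46.2 CPM in 786-O-VHL. The groups were far apart against the spread within them, and the fall was 1.76-fold (log2 fold change -0.82, SE 0.077, FDR 3.32e-10). SLC25A44, a carrier of branched-chain amino acids, fell 1.58-fold, from 43.0 and 42.4 CPM to 29.2 and 26.3 CPM (log2 fold change -0.66, SE 0.099, FDR 1.37e-06), and was also named after its values were seen.

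The other amino acid carriers were not called. SLC25A12, the paralog of SLC25A13, had a log2 fold change of -0.14 (FDR 0.392) and SLC25A15, the ornithine carrier of the urea cycle, one of -0.07 (FDR 0.702). SLC25A18, a glutamate carrier, was barely detected, with 15 and 10 counts in 786-O-Ctrl, against 1 and 10 in 786-O-VHL, and entered the test only through its 786-O-Ctrl libraries (FDR 0.653).

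Of the carriers of carnitine and glutathione, 2 of the 3 tested were lower and none was higher, where 31.9% and 32.6% of all genes were. SLC25A39, which is needed for glutathione, the main thiol antioxidant, to enter mitochondria (ENSG00000013306.16, chr17:42396993-42402238, minus strand), read 283 and 269 CPM in 786-O-Ctrl and 212 and 224 CPM in 786-O-VHL. Its groups did not overlap and it fell 1.26-fold (log2 fold change -0.33, SE 0.064, FDR 5.52e-05). Its paralog SLC25A40 fell 1.30-fold (log2 fold change -0.38, SE 0.11, FDR 0.00281), and this call was lost in 2 alternatives.

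Of the carriers of cofactors and nucleotides, 6 were tested. Among them 2 were higher (33.3%, against 32.6% of all genes) and none lower, where 31.9% of all genes were. SLC25A36, a pyrimidine nucleotide carrier (ENSG00000114120.12, chr3:140660672-140699837, plus strand), read 72.5 and 75.0 CPM in 786-O-Ctrl and 87.5 and 85.5 CPM in 786-O-VHL. It rose 1.17-fold without overlap (log2 fold change 0.23, SE 0.070, FDR 0.00647), and the call was lost in 4 alternatives. SLC25A42, a carrier of coenzyme A, rose 1.42-fold (log2 fold change 0.50, SE 0.19, FDR 0.0234), a call lost in 5 alternatives.

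SLC25A16, SLC25A17 and SLC25A51 were among the cofactor carriers without a call. SLC25A51, which brings NAD+ into the matrix, had a log2 fold change of -0.07 (FDR 0.71). SLC25A17, which sits in peroxisomes, had one of -0.26 (FDR 0.112).

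Both mitoferrins, which bring iron into the matrix for heme and iron-sulfur clusters, were tested, and 1 was higher, where 32.6% of all genes were. SLC25A37, mitoferrin-1, known for its role in red cell precursors (ENSG00000147454.14, chr8:23386469-23432976, plus strand), read 71.9 and 72.6 CPM in 786-O-Ctrl and 107 and 96.1 CPM in 786-O-VHL. All 786-O-VHL values were above those of 786-O-Ctrl, and the rise was 1.37-fold (log2 fold change 0.46, SE 0.071, FDR 2.4e-06). SLC25A28, mitoferrin-2, the form of most tissues, read 24.9 and 25.2 CPM against 25.1 and 25.8 CPM, values that overlapped and did not pass the test (log2 fold change 0.04, SE 0.11, FDR 0.801).

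The 3 carriers related to the uncoupling proteins were all called, 2 as higher and 1 as lower, where 64.5% of all genes were called. SLC25A27, also called UCP4 and known mainly from the brain (ENSG00000153291.16, chr6:46620652-46645927, plus strand), had 5 and 6 counts in 786-O-Ctrl, against 4 and 16 in 786-O-VHL, or 0.237 and 0.399 CPM against 1.36 and 0.950 CPM. The libraries did not overlap and the rise was 3.28-fold (log2 fold change 1.71, SE 0.61, FDR 0.0162). It passed the filter on low counts only through 786-O-VHL and so had to differ to be tested, and its call was lost in 4 alternatives, among them leaving out the deeper 786-O-Ctrl library or either 786-O-VHL replicate.

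SLC25A30, known as KMCP1 and first described in kidney (ENSG00000174032.17, chr13:45967451-45992590, minus strand), read 23.7 and 21.7 CPM in 786-O-Ctrl and 36.6 and 27.7 CPM in 786-O-VHL. The 786-O-VHL libraries lay above 786-O-Ctrl but apart from each other, and the rise was 1.31-fold (log2 fold change 0.39, SE 0.12, FDR 0.0061), a call lost in 2 alternatives. SLC25A14, also called UCP5 (ENSG00000102078.16, chrX:129473862-129507335, plus strand), read 8.404 and 7.97 CPM against 7.12 and 5.11 CPM. Its fall of 1.49-fold (log2 fold change -0.58, SE 0.21, FDR 0.0189) was the call lost most often, in 6 alternatives, and without 786-O-VHL replicate 2 its log2 fold change was -0.21.

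Of the outer membrane and orphan members, whose substrates are less well known, 1 of 5 tested was lower (20.0%, against 31.9% of all genes). SLC25A43 (ENSG00000077713.19, chrX:118533299-118588441, plus strand) read 42.5 and 46.3 CPM in 786-O-Ctrl and 35.3 and 34.97 CPM in 786-O-VHL, and fell 1.26-fold without overlap (log2 fold change -0.34, SE 0.093, FDR 0.00258), a call lost in 3 alternatives. SLC25A46, an outer membrane member that shapes mitochondria, had a log2 fold change of -0.17 (FDR 0.0697), and was called lower with RLE size factors and with no filter. SLC25A35, SLC25A45 and SLC25A53 were not called, with FDR values of 0.064, 0.0693 and 0.645. By edgeR with library totals alone SLC25A45 was called higher (FDR 0.0321).

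The 3 members below the filter can be given by their counts alone. SLC25A41, an ATP-Mg/phosphate carrier, had 5 and 2 counts in 786-O-Ctrl, against 2 and 6 in 786-O-VHL. SLC25A32, which carries folate or FAD, had 8 and 9 against 1 and 7, and a gene on the same strand covers 69.7% of its exons. SLC25A34, an orphan, had 10 and 8 against 1 and 10, so that no difference in these 3 was detectable at this depth.

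**Figure D2:**
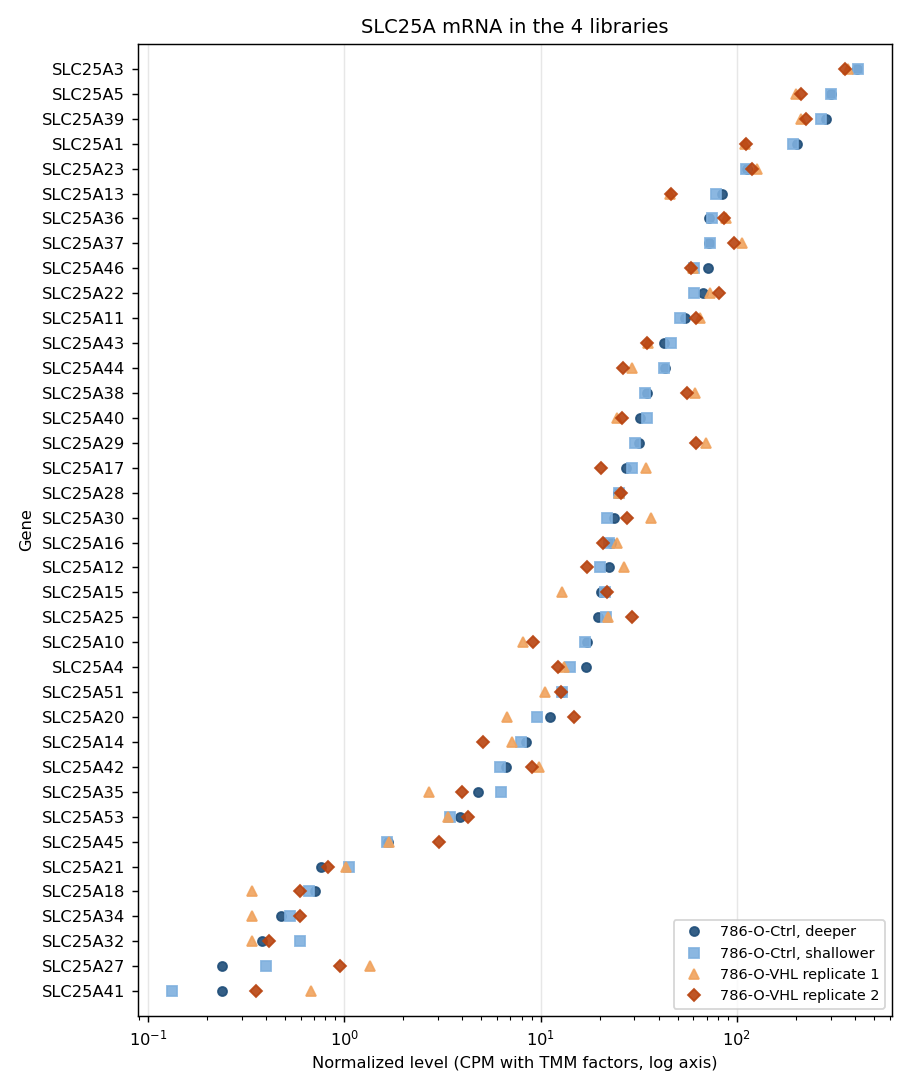
Level of SLC25A members in the 4 libraries, as CPM with TMM factors on a log axis, 1 symbol per library. Levels run from under 1 CPM in SLC25A41 to 414 CPM in SLC25A3, and the 786-O-VHL symbols are left of those of 786-O-Ctrl in SLC25A1, SLC25A13 and SLC25A10 and right of them in SLC25A29 and SLC25A38.

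Between genes, levels were compared per kilobase of the MANE transcript. In 786-O-Ctrl the order was SLC25A5 with 229.7 ± 0.369 CPM per kb (SD, n = 2), SLC25A39 with 174 ± 6.24, SLC25A1 with 128 ± 5.05, SLC25A3 with 69.0 ± 0.389 and SLC25A23 with 32.0 ± 0.201. Neighbours in this order were apart by more than their SD. In 786-O-VHL the first 4 kept this order, with 158, 138, 71.3 and 60.4 CPM per kb, and SLC25A11 with 37.5 came before SLC25A23 with 35.5. The order depended on the length used, because SLC25A3 has a MANE transcript of 5984 bases with 1083 coding bases. Per kilobase of coding length it came first in 786-O-Ctrl, with 381 CPM per kb against 336 for SLC25A5, 256 for SLC25A39, 212 for SLC25A1 and 79.4 for SLC25A23.

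The SLC25A members of this report together took 0.206% and 0.203% of all counts in 786-O-Ctrl, against 0.203% and 0.199% in 786-O-VHL. This sum leaves out the listed carriers not analysed and the family members with other symbols. With TMM scaling the sums were 2170 and 2122 CPM against 1929 and 1904 CPM, so the size of the difference depended on the scaling. Within this set the balance moved: SLC25A1 held 9.36% and 9.06% of the set's counts in 786-O-Ctrl, against 5.70% and 5.83% in 786-O-VHL. SLC25A5 held 13.9% and 14.1% against 10.3% and 11.2%, whereas SLC25A3 held 18.9% and 19.5% against 19.2% and 18.6%.

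Related carriers with a shared substrate or function were set beside each other as ratios of levels per kb in each library, with no test, since most of these members were already tested singly. SLC25A13 over SLC25A12, the pair of aspartate/glutamate carriers, gave 4.69 and 4.88 in 786-O-Ctrl, against 2.17 and 3.35 in 786-O-VHL. SLC25A11 over SLC25A10, both of which carry malate, gave 3.62 and 3.49 against 9.13 and 7.74. In both pairs the groups did not overlap.

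SLC25A37 over SLC25A28, the mitoferrins, gave 0.943 and 0.942 in 786-O-Ctrl, against 1.39 and 1.22 in 786-O-VHL, without overlap. Which of the mitoferrins was the more abundant depended on the length used, since per kilobase of coding length SLC25A37 was above SLC25A28 in both groups (71.3 against 22.9 CPM per kb in 786-O-Ctrl and 99.9 against 23.3 in 786-O-VHL). SLC25A39 over SLC25A40 gave 22.7 and 19.9 against 22.2 and 22.2, with overlap. SLC25A5 over SLC25A4 gave 59.5 and 71.9 against 50.8 and 58.8, and SLC25A23 over SLC25A25 gave 5.61 and 5.07 against 5.69 and 4.04. Of these last pairs, that of the ADP/ATP carriers lay below 786-O-Ctrl in each 786-O-VHL library by a small margin and that of the ATP-Mg/phosphate carriers overlapped.

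**Figure D3:**
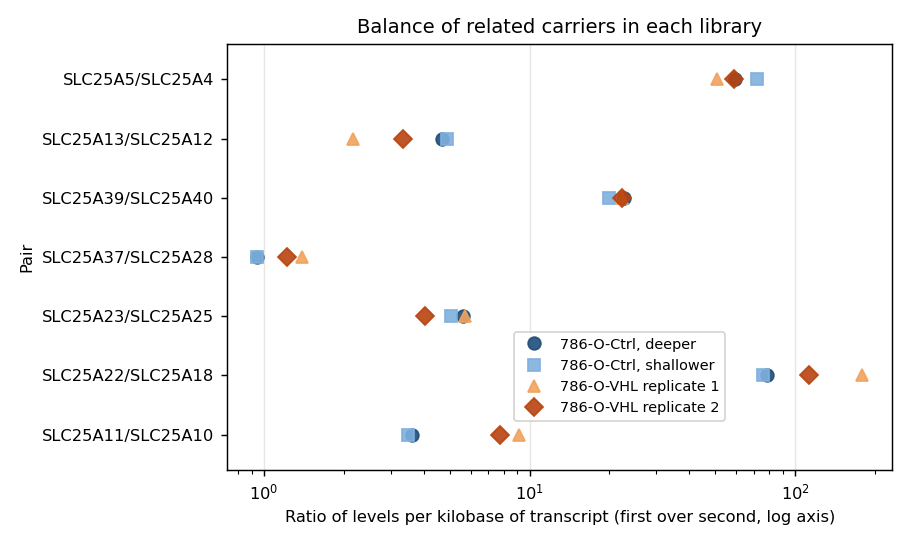
Ratio of the level per kilobase of transcript of one carrier to that of a related one, on a log axis, with 1 symbol per library. SLC25A13 over SLC25A12 falls from 4.69 and 4.88 to 2.17 and 3.35, SLC25A11 over SLC25A10 goes from 3.62 and 3.49 to 9.13 and 7.74, and SLC25A22 over SLC25A18 rests on 1 count of SLC25A18 in 786-O-VHL replicate 1.

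In some members the 786-O-VHL replicates disagreed. The larger library exceeded the smaller by more than 1.5-fold in 6 of the 36 tested members in 786-O-VHL and in 1 in 786-O-Ctrl, with a median of 1.12 and 1.07. SLC25A20, the carnitine/acylcarnitine carrier of fatty acid oxidation, read 11.1 and 9.64 CPM in 786-O-Ctrl and 6.78 and 14.8 CPM in 786-O-VHL. Replicate 1 was thus below and replicate 2 above both 786-O-Ctrl libraries, and the 95% Poisson intervals of the replicates, which cover counting error only, were 4.14 to 10.5 and 13.0 to 16.7 CPM. Its log2 fold change was 0.31 (FDR 0.145), and it was -0.63 without replicate 2 and 0.50 without replicate 1.

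SLC25A17 showed the opposite order, with 34.3 CPM in replicate 1 and 20.4 CPM in replicate 2 of 786-O-VHL, on either side of 27.3 and 29.1 CPM in 786-O-Ctrl. The intervals of the replicates were 27.9 to 41.6 and 18.3 to 22.6 CPM. SLC25A15 read 20.4 and 21.3 CPM in 786-O-Ctrl and 12.9 and 21.9 CPM in 786-O-VHL, and only replicate 1 stood apart. SLC25A12 read 22.4 and 20.1 CPM against 26.5 and 17.3 CPM, so that its mean was slightly higher in 786-O-VHL while the fit, in which the deeper library weighs more, gave a log2 fold change of -0.14. The 4 were chosen for this disagreement with their values known, and none was called in the main fit. With every library kept, SLC25A17 was called lower with limma-voom (log2 fold change -0.339, FDR 0.01). SLC25A20 was called higher by edgeR with library totals alone (log2 fold change 0.446, FDR 0.0366). Each of the 4 also passed in a fit without a 786-O-VHL replicate, which leaves 1 library in that group. Without replicate 1 the log2 fold change was -0.465 in SLC25A17, -0.306 in SLC25A12 and 0.076 in SLC25A15. Without replicate 2 it was 0.28, 0.303 and -0.694 in the same order. The part of the low depth of replicate 1 was not tested.

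Other mitochondrial transport genes were read from the same fit. Of family members with other symbols, UCP2 and MTCH1 were tested. UCP2, the uncoupling protein of wide tissue range, read 72.4 and 77.7 CPM in 786-O-Ctrl and 190.6 and 201 CPM in 786-O-VHL. It rose without overlap (log2 fold change 1.398, SE 0.067, FDR 1.18e-16), more in fold than any SLC25A member but SLC25A27. MTCH1, an outer membrane relative of the carriers, fell (log2 fold change -0.40, FDR 1.45e-05).

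Carriers reach the inner membrane through TOM and the small TIM chaperones. Of 13 tested genes of this route, 3 were higher (23.1%) and 5 lower (38.5%), near the 32.6% and 31.9% of all genes, with a median of -0.15. TOMM22 (log2 fold change -0.74), TOMM40 (-0.70) and TIMM8A (-0.64) fell the most, and TIMM9 (0.45), TOMM7 (0.29) and TIMM8B (0.23) rose. TOMM70, the receptor that binds incoming carriers, fell by 0.45 on the log2 scale. Without the deeper 786-O-Ctrl library none of the genes was called higher and 4 were called lower.

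Of the other inner membrane metabolite transporters, 8 of 11 were lower (72.7%, against 31.9% of all genes) and 2 higher (18.2%, against 32.6%). Their median was -0.61. SFXN2 (-1.35), a sideroflexin, ABCB8 (-0.94) and ABCB10 (-0.86) fell the most, and MPC1 (0.61), a subunit of the pyruvate carrier, and SFXN4 (0.28) rose. The lower count was 6 to 8 over all alternatives, and the higher count was 0 to 2. The outer membrane channels, through which metabolites pass before they reach the carriers, were all 4 lower, where 31.9% of all genes were. Their median was -0.61. VDAC1 read 497.5 and 497 CPM in 786-O-Ctrl and 223 and 229 CPM in 786-O-VHL (log2 fold change -1.13, FDR 3.76e-15), and VDAC3 (-0.61) and VDAC2 (-0.61) fell too. In each alternative 3 or 4 of these 4 were called, all lower.

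Of the calcium uptake and exchange genes, 5 of 8 were lower and 0 higher by edgeR, with a median of -0.25 and a highest log2 fold change of 0.62. The share called was 62.5%, against 64.5% of all genes. All of these calls were lower, where 31.9% of all genes were lower and 32.6% higher. MCUB (-0.32) and MICU2 (-0.29) were among those that fell. The lower count was 1 with library totals alone, 2 with DESeq2, 1 without 786-O-VHL replicate 2 and 6 without replicate 1, the higher count was 1 with library totals alone and with limma-voom, and the median of the list was below 0 in each of these. Against these lists, the median of the SLC25A members was closer to 0, a difference that was not tested.

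**Figure D4:**
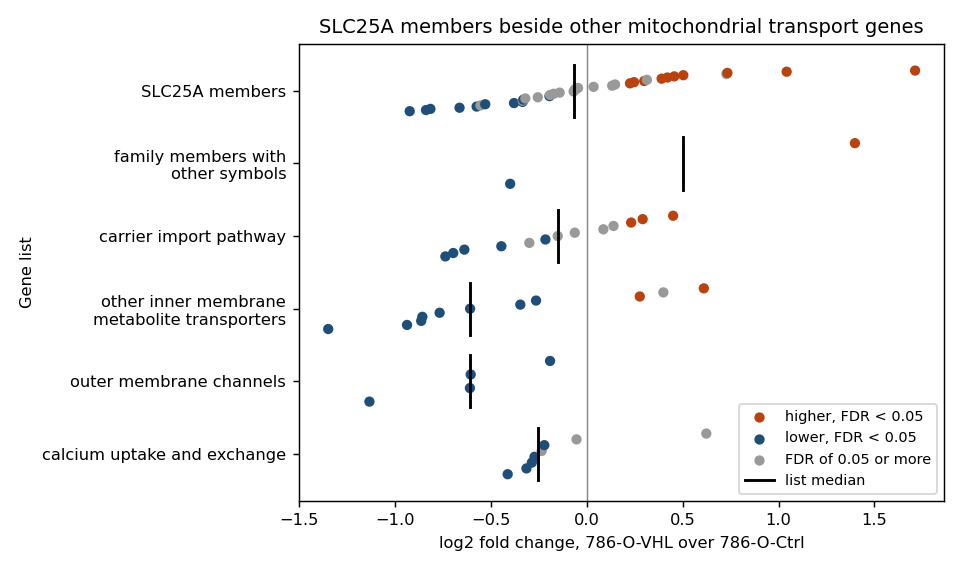
log2 fold change, 786-O-VHL over 786-O-Ctrl, of the tested genes of each list of mitochondrial transport genes, with a black line at the list median and colour by call (edgeR, FDR 0.05). The SLC25A members lie around a median of -0.07, and all 4 outer membrane channels lie below 0.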

How the data were processed

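Bulk RNA was measured by RNA-seq in 2 libraries per subline. RNA was extracted with a column kit, made into libraries with the Illumina TruSeq RNA kit and sequenced. Reads were mapped to hg19, and the authors deposited raw counts of 12912 genes. The submitters' processing notes name CASAVA and STAR, without versions. How reads were counted, with which annotation and whether by strand, is not given in the sources used here, so overlapping genes and close copies can share reads. Both 786-O-Ctrl columns carry the same replicate number and were used as unnumbered replicates.

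The quasi-likelihood test of edgeR 4.0.16 (R 4.3.3) was run on the counts with the group as the only term, after filterByExpr with a minimum count of 10 (12335 genes kept, 577 removed) and TMM scaling, with Benjamini-Hochberg adjustment over all genes tested. The common dispersion was 0.00186. Genes were called at an FDR under 0.05, and the thresholds of the paper, 4-fold with an FDR under 0.01, were counted too. Replicates differed by more than counting error, with a chi-square per degree of freedom of 2.25 (786-O-Ctrl) and 2.76 (786-O-VHL). Gene coordinates are from a GENCODE annotation on GRCh37, in which 12749 identifiers were found, and promoter windows are from RefSeq on GRCh38.p14. No protein sequences were used here. Single values of a few genes and 1 promoter are not reported here, and counts and medians over groups include them.

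Members, roles and gene lists were chosen with earlier results of these data known. Values in every library are given for members past 2-fold at an FDR under 0.05, for the member with the smallest p in each direction of each substrate group, and for the 5 with the highest level per length. Of each list of other transport genes, at most 3 per direction are named. VHL, PECAM1, KDR, TOMM70, SLC25A10, SLC25A38, SLC25A44 and the members whose replicates disagreed were added outside this rule, as were fold changes of other members. On counts simulated for this comparison with 12335 genes, 200 were changed by 2-fold or 4-fold, up or down. Of these edgeR recovered 192, with 11 false calls, limma-voom 193 with 12 and DESeq2 174 with 0. Changes below 2-fold, the size seen in most members, were not simulated, nor was a share of changed genes as large as that called here. The alternatives were DESeq2 1.42.0, limma-voom (limma 3.58.1), RLE size factors, library totals alone, no filter, at least 10 counts in every library, thinning to the shallowest library, a prior count of 2, and each library left out. Their use on the lists of other transport genes was added after seeing the data.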

Additional observations from a re-analysis of the deposited data

How the results depend on the processing

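Of the 20 called members, 9 kept their call in every alternative and 11 lost it in at least one, and no called member changed direction. The number called was 20 by edgeR, 13 with DESeq2 and 13 after thinning to the shallowest library, and 12 to 24 with each library left out. Higher members numbered 10, but 4 with DESeq2, 6 after thinning and 4 to 11 with each library left out. Lower members numbered 10, and 7 to 13 with each library left out. The median log2 fold change of -0.07 was 0.065 with library totals alone, where that of all genes was 0.15, and -0.146 to -0.058 with each library left out. The shares called over all genes moved as well. They were 32.6% higher and 31.9% lower by edgeR, 23.2% and 25.5% with DESeq2, and 26.2% and 26.2% after thinning. With each library left out these shares changed too, so the counts of members do not show a change particular to the carriers. The cause of these changes was not tested, except that thinning leaves fewer counts to test.

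Among the members reported singly, the sign reversed only in those without a call. With library totals alone SLC25A51 had 0.063, SLC25A21 0.086, SLC25A15 0.068 and SLC25A16 0.072. After thinning, SLC25A53 had -0.043, and with limma-voom SLC25A21 had 0.032. With each library left out, log2 fold changes spanned -0.31 to 0.30 in SLC25A12, -0.47 to 0.28 in SLC25A17, -0.63 to 0.50 in SLC25A20, -0.694 to 0.076 in SLC25A15, -0.12 to 0.11 in SLC25A16, -0.29 to 0.19 in SLC25A21, -0.13 to 0.22 in SLC25A53 and -0.002 to 0.044 in SLC25A28. A fit without either replicate of a group leaves 1 library there, which is assumed to vary like the other group.

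No paired analysis was possible because both 786-O-Ctrl columns carry the same replicate number. With 2 libraries against 2, an exact permutation test of a single value cannot go below 0.333. In 786-O-VHL replicate 1, 3 counts are 1.02 CPM, so differences in members near 1 CPM (SLC25A18, SLC25A21, SLC25A27, SLC25A32, SLC25A34 and SLC25A41) are limited by depth, and counting intervals cover counting error only.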
